A study of Mus musculus with 24 samples.

Results

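Solute carriers are membrane proteins that move nutrients, metal ions, inorganic ions and metabolites across the plasma membrane and the membranes of lysosomes, mitochondria and the Golgi. They work without hydrolysing ATP themselves, either by letting a substrate run down its gradient or by coupling it to sodium, protons or a counter-substrate, and several need a partner protein to reach the membrane. In macrophages they are known for supplying cystine for glutathione, for moving zinc and iron during infection, and for exporting the products of lysosomal digestion.

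The genes described here are the mouse genes whose symbol has the form Slc, a family number, the letter a and a member number, and whose level reached 1 FPKM (counts per kilobase of transcript, scaled to library size) in 2 or more of 24 libraries. The counted table held 350 such symbols. Of these, 13 carriers of glucose, cationic amino acids, lactate, iron and fatty acids were held out by name, 203 stayed under the level filter, 28 of them without a count in any library, and 134 remained as members. Just inside the filter, with 2 libraries at 1 FPKM or more, lay 3 members: Slc27a2, Slc16a7 and Slc25a26. Just outside it, with 1 library, were 6 genes: Slc52a2, Slc22a18, Slc26a11, Slc32a1, Slc38a4 and Slc16a14.

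The cells were mouse alveolar macrophages, the resident phagocytes of the air spaces, recovered by lung lavage on postnatal day 1 (D1), day 3 (D3), day 7 (D7), day 21 (D21) or day 49 (D49). They were cultured for 4 h with 400 ng/mL lipopolysaccharide (LPS) of E. coli 055:B5, a bacterial cell wall product that activates Toll-like receptor 4, or in medium free of LPS as control, and bulk RNA-seq was made. Each library pooled cells of several mice, and the sources used here give neither strain nor sex. LPS-treated libraries numbered 3 at D1 and 2 at every later age, and controls numbered 2 at D1 and D7 and 3 at D3, D21 and D49. The labels do not say that libraries of a group came from separate animals, so p-values measure only how these libraries varied, and that variation may be technical.

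Library totals were 15770751 to 23334625 counts. All 10 alveolar macrophage markers in the list reached 1 FPKM, with summed levels of 1457 to 25217 FPKM that were higher at the later ages. Most of the sum in D49 controls, on average 18290 FPKM, came from Chil3, at 15590 FPKM against 200.1 FPKM in D1 controls. By control means 8 of the 10 markers were higher at D49 than at D1 and 2 were lower. The lower ones were Marco, at 92.02 FPKM against 305.7 FPKM, and Car4. The 10 libraries with a GC deviation beyond 1 in size (an excess or lack of counts in GC-rich against GC-poor genes, in log2 units) lay at 1.58 to 2.83 in D1 and D3 and at −3.13 to −1.33 in D21 and D49, against −0.57 to 0.38 in the other 14 libraries. Age and GC deviation are thus partly confounded, and each call below is given with the value from a fit that holds GC deviation as a covariate wherever that fit ended the call. Markers of exocrine gland were out of balance between treatments: their sum was 760 to 1166 FPKM in D1 LPS-treated libraries against 4.61 to 5.02 FPKM in D1 controls, while at D49 it was 6.66 to 7.93 FPKM with LPS against 1144 to 2031 FPKM in controls. The summed level of 6 skeletal muscle markers was lower with LPS at all 5 ages without overlap, at 0.0816 to 1.97 FPKM with LPS against 1.94 to 91.6 FPKM in controls. That of 4 endothelial markers was higher with LPS at all 5 ages without overlap, at 0.338 to 6.18 FPKM with LPS against 0.0657 to 2.4 FPKM in controls. That of 6 monocyte markers was higher with LPS without overlap at D7, D21 and D49, at 34.2 to 66.3 FPKM with LPS against 4.23 to 25.7 FPKM in controls. Of 10 neutrophil markers 5 reached 1 FPKM, with a summed level of 28 to 310.1 FPKM. T and NK cell, B cell and fibroblast lists had no gene at 1 FPKM in any library. The part of these markers in the results was not tested.

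Levels below are FPKM from the deposited counts, scaled between libraries by edgeR's TMM factors. They are per length, which does not remove the GC deviation given above, so levels of different genes are compared with that limit. A gene is said to have risen or fallen where the adjusted p of edgeR's quasi-likelihood (QL) test, corrected by Benjamini-Hochberg over all 11774 genes tested, was under 0.05. Fold changes are log2 differences ± SE, LPS minus control or D49 minus D1. In bulk samples, fewer cells of a type and less RNA per cell cannot be told apart.

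The 4 carriers highest in level held 48.5% of the summed mean level of the members, at 43.6% to 57.7% of the sum in LPS-treated libraries and 36.5% to 53.6% in controls. Mean levels over all libraries were above 100 FPKM for 4 members, 10 to 100 FPKM for 35, 1 to 10 FPKM for 74 and below 1 FPKM for 21, with a median of 4.80 FPKM. Slc7a11, the light chain of the cystine-glutamate exchanger, averaged 784 FPKM and alone made up 11.5% to 45.4% of the summed member level. The lowest share was that of D3 control library 2, with a GC deviation of 1.90, and the highest that of D49 control library 3, at −3.13. The part of GC deviation in this range was not tested. Slc7a11 was followed by its heavy chain Slc3a2 at 220 FPKM, the adenine nucleotide carrier Slc25a5 of the inner mitochondrial membrane at 163 FPKM, and the zinc importer Slc39a1 at 105 FPKM. The largest substrate classes were mitochondrial carriers with 32 members, carriers of amino acids, peptides and amines with 27, of zinc, copper, iron, magnesium and heme with 23, and of inorganic ions and protons with 17. Among the members 3 are named after a carrier but are no transporters: Slc4a1ap, Slc7a6os and the scaffold protein gene Slc9a3r1.

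The summed member level averaged higher with LPS at every age. It was 2592 ± 200.1 FPKM with LPS against 2326 ± 160.2 FPKM in controls at D1 (SD, n = 3 and 2), 3057 ± 17.1 FPKM against 2213 ± 51.2 FPKM at D7 (n = 2 each), and 3162 ± 32.4 FPKM against 2776 ± 365 FPKM at D49 (n = 2 and 3). The LPS and control libraries overlapped in this sum at D1, where the lowest LPS-treated library had 2362 FPKM and the highest control 2439 FPKM, and also at D49, where the lowest LPS-treated library had 3140 FPKM and the highest control 3185 FPKM. Amino acid carriers held 47.1% to 58.4% of it in LPS-treated libraries and 42% to 59.5% in controls. They summed to 1249 ± 68.9 FPKM with LPS against 1050 ± 55.4 FPKM in controls at D1 (n = 3 and 2), and to 1768 ± 8.28 FPKM with LPS against 1124 ± 1.3 FPKM in controls at D7 (n = 2 each).

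Promoter sequences are shown for the 5 carriers with an entry in the reference tables that either responded to LPS at all ages or, as Slc7a11, dominated the level. They are the 200 bases before the annotated start, 5′ to 3′ on the gene's strand, from RefSeq on build GRCm38.p6, with motif matches in capitals: Slc7a11 at chr3:50443614-50443813 (minus strand), Slc6a12 at chr6:121342374-121342573 (plus), Slc1a2 at chr2:102706238-102706437 (plus), Slc44a1 at chr4:53440213-53440412 (plus) and Slc8a1 at chr17:81738388-81738587 (minus).
Slc7a11: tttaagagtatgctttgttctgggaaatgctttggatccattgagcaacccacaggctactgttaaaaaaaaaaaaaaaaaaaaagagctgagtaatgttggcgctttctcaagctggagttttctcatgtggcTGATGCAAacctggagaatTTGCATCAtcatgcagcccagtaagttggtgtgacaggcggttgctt
Slc6a12: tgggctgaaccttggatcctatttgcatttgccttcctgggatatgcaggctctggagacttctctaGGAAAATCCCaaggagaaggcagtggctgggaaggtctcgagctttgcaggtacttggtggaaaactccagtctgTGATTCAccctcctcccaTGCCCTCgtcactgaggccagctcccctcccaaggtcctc
Slc1a2: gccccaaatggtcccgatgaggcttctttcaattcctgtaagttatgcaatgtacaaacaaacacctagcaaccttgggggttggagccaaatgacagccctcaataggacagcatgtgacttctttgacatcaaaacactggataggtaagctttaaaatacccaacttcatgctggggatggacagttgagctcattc
Slc44a1: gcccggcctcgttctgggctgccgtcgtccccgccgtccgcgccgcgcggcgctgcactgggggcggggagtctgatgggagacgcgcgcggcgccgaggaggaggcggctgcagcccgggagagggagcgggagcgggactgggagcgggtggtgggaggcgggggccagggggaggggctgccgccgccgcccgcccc
Slc8a1: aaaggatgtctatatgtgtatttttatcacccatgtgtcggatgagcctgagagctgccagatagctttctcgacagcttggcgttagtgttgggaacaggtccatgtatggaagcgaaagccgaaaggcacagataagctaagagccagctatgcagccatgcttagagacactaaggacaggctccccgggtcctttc
The motifs, searched on both strands of the 250 bases before the start, were the NF-kB consensus, TGANTCA for AP-1 (which matches itself on the other strand at the same place), TGACNNNGC for the antioxidant response element, TGATGNAA for the C/EBP-ATF element of the amino acid response, the interferon-stimulated response element and TGCNCNC. The last is looser than the metal response element core, which is TGCACNC or TGCGCNC, so a match need not be that element. RefSeq held a promoter for 103 of the 134 members and for 27025 genes in all, the start farthest upstream being used where several were listed.

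In the printed windows, Slc7a11 held TGATGNAA at 66 and 47 bases before the start, once on each strand. Slc6a12 held the NF-kB consensus, on the minus strand, at 133 bases, TGANTCA at 58 bases and TGCNCNC at 40 bases before the start. That TGCNCNC match reads TGCCCTC, which is not the metal response element core. No match was found in the 200 bases of Slc1a2, Slc44a1 or Slc8a1. The shares of member promoters and of all promoters with at least 1 match were 4.85% and 4.81% for the NF-kB consensus, 8.74% and 6.85% for TGANTCA, 14.6% and 10.1% for TGACNNNGC, 3.88% and 3.53% for TGATGNAA, 0.971% and 3.05% for the interferon-stimulated response element, and 51.5% and 43.8% for TGCNCNC. These matches describe letters in a window, and no binding was measured.

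The first question of the design is what 4 h of LPS did to the carriers. Averaged over the 5 ages, 26 members rose and 35 fell, which is 19.4% and 26.1% of members, against 14.9% and 18.8% of all genes tested. The median log2 fold change was −0.03 over the members and 0.01 over all tested genes, so the members moved in both directions. With GC deviation as a covariate 28 rose and 50 fell (20.9% and 37.3% of members, against 18.6% and 22.7% of all genes), and 26 of the rises and 32 of the falls were called by both fits. The largest rises were those of the glutamate, betaine and choline carriers Slc1a2, Slc6a12 and Slc44a1, then the scaffold gene Slc9a3r1, the potassium-chloride exporter Slc12a4 and the neutral amino acid carrier Slc38a1. The largest falls were those of the sodium-calcium exchanger Slc8a1 and the taurine carrier Slc6a6. Counts by substrate class below are descriptions without a test, to be read against these shares of all genes.

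**Figure D1:**
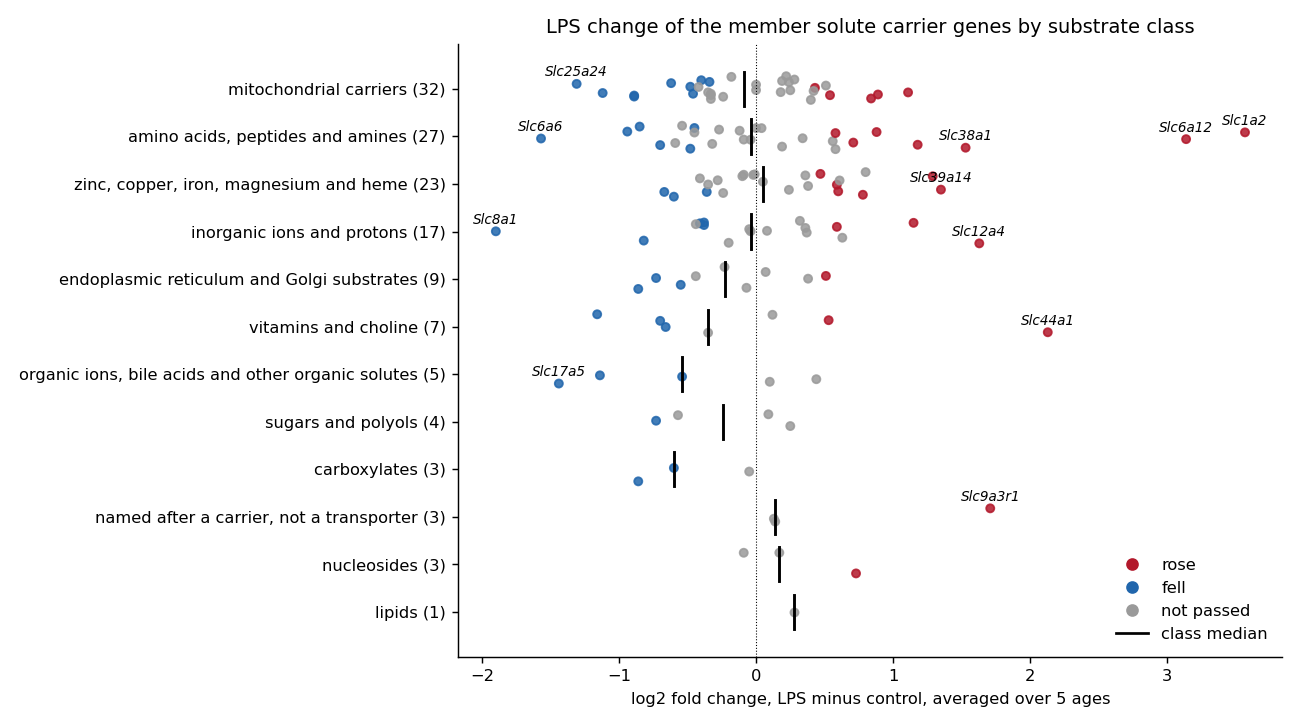
Log2 fold change with LPS averaged over ages (x axis) for each of the 134 members, one point a gene, in rows by substrate class with a bar at the class median. Most classes straddle 0, and the points farthest to the right are Slc1a2 at 3.57, Slc6a12 at 3.14 and Slc44a1 at 2.13.

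Among the 27 carriers of amino acids, peptides and amines, 7 rose and 6 fell, with a median of −0.04. Slc1a2, a sodium-coupled glutamate importer best known from astrocytes, had 2.88, 1.52 and 3.08 FPKM with LPS at D1 against 0.521 and 0.426 FPKM in D1 controls, and 1.94 and 2.31 FPKM with LPS at D49 against 0.0951, 0.163 and 0.183 FPKM in D49 controls. Between them it had 4.04 and 3.09 FPKM with LPS against 0.256, 0.173 and 0.232 FPKM in controls at D3, 5.35 and 5.05 FPKM against 0.282 and 0.242 FPKM at D7, and 2.64 and 2.68 FPKM against 0.292, 0.217 and 0.309 FPKM at D21. Every LPS-treated library lay above every control library of its age, and the averaged log2 fold change was 3.57 ± 0.16 (edgeR QL adjusted p = 2.6e-12). All its controls lay below 1 FPKM, so Slc1a2 passed the level filter only through its LPS-treated libraries. Its rank among the members is to be read with that limit. The gene is weakly expressed, since even its highest library stayed far below the class leader Slc7a11.

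Slc6a12, the betaine and GABA carrier known for osmolyte uptake in kidney, had 6.50, 15.4 and 9.32 FPKM with LPS at D1 against 1.38 and 2.09 FPKM in controls, and 3.92 and 6.38 FPKM with LPS at D3 against 0.494, 1.01 and 0.752 FPKM in controls. At D7 it had 2.05 and 2.66 FPKM with LPS against 0.287 and 0.0993 FPKM in controls, at D21 1.04 and 0.487 FPKM with LPS against 0.131, 0 and 0.0205 FPKM in controls, and at D49 0.735 and 0.413 FPKM with LPS against 0.119, 0.0213 and 0.0739 FPKM in controls. The groups did not overlap at any age, and the mean of both treatments was lower at D7 and later than at D1. In D21 controls the gene had 7, 0 and 1 counts, so its control level there rests on few reads. The averaged log2 fold change was 3.14 ± 0.32 (adjusted p = 3e-07).

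Slc38a1, a sodium-coupled importer of glutamine and other small neutral amino acids, stayed between 17.7 and 27.8 FPKM in all LPS-treated libraries and between 5.91 and 9.48 FPKM in all controls. It had 23.5, 17.7 and 27.2 FPKM with LPS at D1 against 9.16 and 8.07 FPKM in controls, 27.8 and 25.2 FPKM with LPS at D7 against 8.26 and 7.76 FPKM in controls, and 22.8 and 20.0 FPKM with LPS at D49 against 7.70, 8.85 and 5.91 FPKM in controls. Its averaged log2 fold change was 1.53 ± 0.10 (adjusted p = 9.9e-10), with single ages between 1.39 and 1.72.

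**Figure D2:**
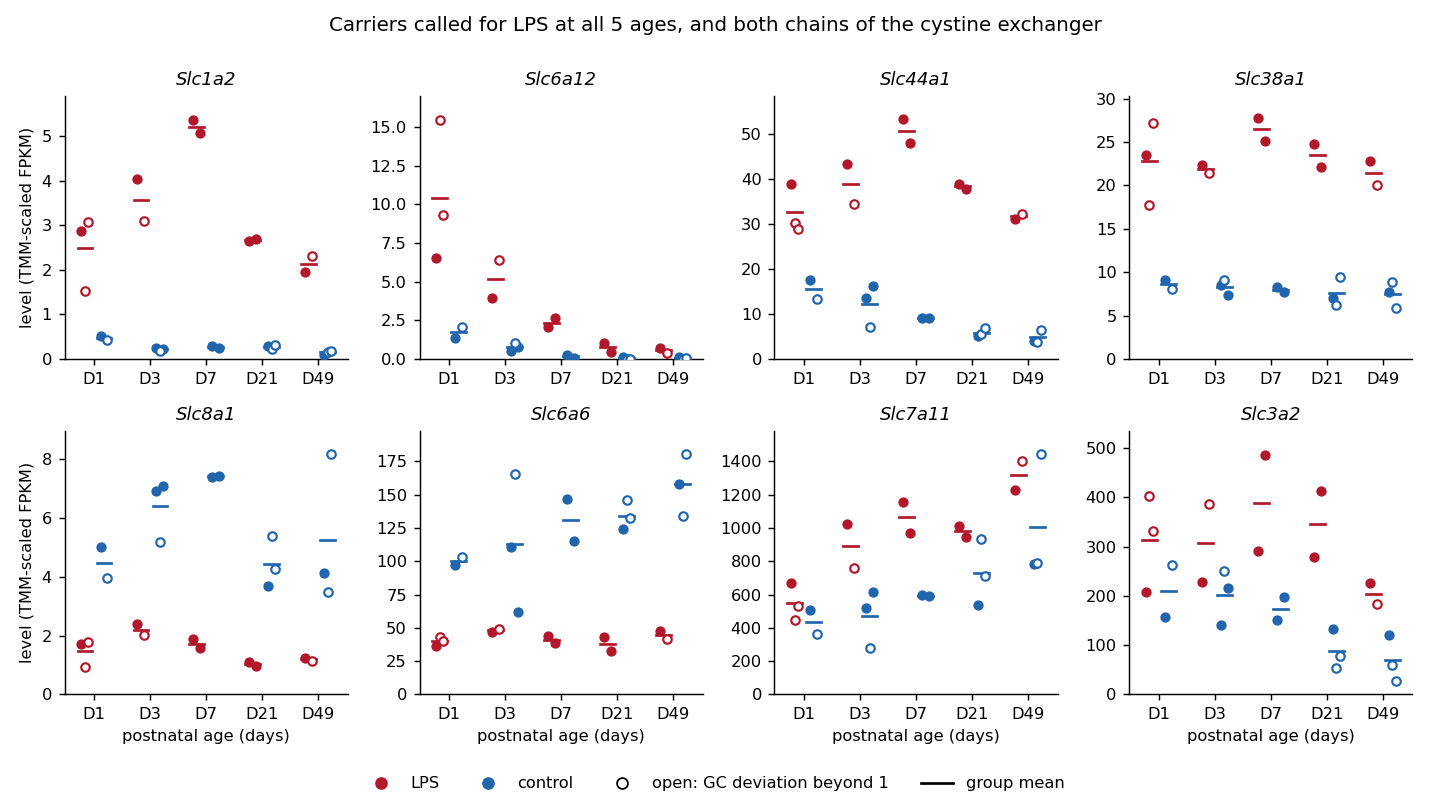
TMM-scaled FPKM (y axis) of 8 members in each library, by age, with LPS-treated libraries in red to the left of controls in blue, open circles for libraries with a GC deviation beyond 1, and lines at group means. Slc1a2, Slc6a12, Slc44a1 and Slc38a1 lie higher with LPS at all ages, Slc8a1 and Slc6a6 lower, and the libraries of Slc7a11 and Slc3a2 differ more within groups.

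The cystine-glutamate exchanger pairs the transporting chain Slc7a11 with the glycoprotein Slc3a2, which other light chains of the Slc7 family share. Slc7a11 had 669, 449 and 531 FPKM with LPS at D1 against 505 and 364 FPKM in controls, and 1021 and 760 FPKM with LPS at D3 against 521, 279 and 613 FPKM in controls. It had 1157 and 971 FPKM with LPS against 595 and 593 FPKM in controls at D7, 1013 and 948 FPKM against 538, 931 and 713 FPKM at D21, and 1228 and 1404 FPKM against 783, 788 and 1447 FPKM at D49. The groups overlapped at D1 and D49 and not at D3, D7 or D21. Its averaged log2 fold change was 0.58 ± 0.15 (adjusted p = 0.0051), it passed at no single age, and with the GC covariate it was 0.80 ± 0.09 (adjusted p = 1.1e-08) and passed at D3, D7, D21 and D49.

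Slc3a2 had 207, 403 and 331 FPKM with LPS at D1 against 156 and 262 FPKM in controls, 228 and 387 FPKM with LPS at D3 against 140, 251 and 215 FPKM in controls, and 278 and 413 FPKM with LPS at D21 against 132, 54.4 and 78.3 FPKM in controls. At D7 it had 291 and 486 FPKM with LPS against 151 and 197 FPKM in controls, and at D49 225 and 183 FPKM with LPS against 121, 59.8 and 26.9 FPKM in controls. The groups overlapped at D1 and D3 and stood apart at D7, D21 and D49. Averaged over ages it rose by 1.18 ± 0.23 on the log2 scale (adjusted p = 0.00046), and at single ages it passed at D21 only, at 1.97 ± 0.49 (adjusted p = 0.011). That call ended without D21 control library 2, at 1.71 (adjusted p = 0.056), and without D21 LPS library 2, at 1.63 (adjusted p = 0.11).

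Glutathione, the product that imported cystine feeds, was followed through a list of 12 genes, 10 of them tested. Besides genes of its synthesis and use, the list held the transcription factor Nfe2l2 and the redox genes Txnrd1 and Srxn1. None of the 10 rose with LPS and 5 fell, which is 50% against the 18.8% of all genes, and with the GC covariate 4 fell, against 22.7%. Nfe2l2 was among the 5 (log2 −0.24, adjusted p = 0.04), a call that ended with the covariate (adjusted p = 0.1). Both subunits of its rate-limiting ligase fell, the modifier Gclm at 50.5 FPKM with LPS against 129 FPKM in controls (log2 −1.27, adjusted p = 1.2e-08) and the catalytic Gclc at 43.8 FPKM against 93.3 FPKM (log2 −0.94, adjusted p = 1.8e-06). Of the 12 genes on the list for the response to amino acid shortage, all tested, none rose and 1 fell (8.33%), and with the covariate 3 fell (25%).

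A light chain and an exchanger of neutral amino acids did not pass. Slc7a5, the large neutral amino acid exchanger that also pairs with Slc3a2, averaged 4.30 FPKM with LPS and 4.37 FPKM in controls (log2 −0.09 ± 0.35, adjusted p = 0.91), and the glutamine exchanger Slc1a5 had a log2 value of −0.27 ± 0.21 (adjusted p = 0.35). With the GC covariate both fell, at −0.55 (adjusted p = 0.00097) and −0.53 (adjusted p = 0.00026). Slc15a3, a lysosomal carrier of histidine and peptides, rose to 67.7 FPKM with LPS against 35.5 FPKM in controls (log2 0.88 ± 0.19, adjusted p = 0.0013). Its single libraries overlapped at D1, where they had 58.5, 104.2 and 98 FPKM with LPS against 40.3 and 69.5 FPKM in controls.

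Falls in the class were led by Slc6a6, the taurine carrier. It had 36.4, 43.3 and 40 FPKM with LPS at D1 against 97.3 and 103 FPKM in controls, 47.2 and 49.0 FPKM against 111, 165 and 61.8 FPKM at D3, 43.9 and 38.5 FPKM against 147 and 115 FPKM at D7, 43.1 and 32.6 FPKM against 124, 146 and 132 FPKM at D21, and 47.9 and 41.9 FPKM against 158, 134 and 181 FPKM at D49. All LPS-treated libraries lay between 32.6 and 49.0 FPKM and all controls between 61.8 and 181 FPKM, so the treatments did not overlap across the study. The averaged log2 fold change was −1.57 ± 0.13 (adjusted p = 2.1e-08). The neutral amino acid importer Slc38a2, which like Slc38a1 couples uptake to sodium, fell by 0.70 ± 0.14 on the log2 scale (adjusted p = 0.00085), to 15.6 FPKM with LPS against 27 FPKM in controls.

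Choline and vitamins are carried by 7 members, of which 2 rose and 3 fell, with a median of −0.35. Slc44a1, a choline carrier of the plasma and mitochondrial membranes, had 39, 30.2 and 28.9 FPKM with LPS at D1 against 17.7 and 13.4 FPKM in controls, and 43.4 and 34.6 FPKM with LPS at D3 against 13.5, 7.22 and 16.3 FPKM in controls. At D7 it had 53.3 and 48.1 FPKM with LPS against 9.10 and 9.14 FPKM in controls, at D21 39 and 37.8 FPKM against 5.03, 5.63 and 6.90 FPKM, and at D49 31.2 and 32.3 FPKM with LPS against 4.02, 3.88 and 6.49 FPKM in controls. No control library reached an LPS-treated one, and the averaged log2 fold change was 2.13 ± 0.14 (adjusted p = 4.9e-10).

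Its relative Slc44a2 fell, at 2.17 FPKM with LPS against 3.56 FPKM in controls (log2 −0.66 ± 0.14, adjusted p = 0.00098). Slc23a2, the sodium-coupled vitamin C carrier and the most abundant of the class, rose to 59.9 FPKM with LPS against 42.6 FPKM in controls (log2 0.53 ± 0.10, adjusted p = 0.00039). Slc5a6, which takes up biotin and pantothenate, fell by 0.70 ± 0.17 on the log2 scale (adjusted p = 0.0033).

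Of the 23 carriers of zinc, copper, iron, magnesium and heme, 6 rose and 3 fell, with a median of 0.05. Slc39a14, an importer of zinc that also takes up iron, had 16.4, 17.1 and 14.2 FPKM with LPS at D1 against 10.5 and 9.68 FPKM in controls, and 37.8 and 35.9 FPKM with LPS at D21 against 12.5, 12.2 and 12.9 FPKM in controls. The groups stood apart at all ages, and the averaged log2 fold change was 1.35 ± 0.11 (adjusted p = 1.1e-08). Slc30a4, which loads zinc into vesicles, rose by 1.29 ± 0.15 on the log2 scale (adjusted p = 1.7e-06), at 1.82 FPKM with LPS against 0.925 FPKM in controls.

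The zinc exporter of the plasma membrane, Slc30a1, moved the other way, at 4.72 FPKM with LPS against 7.73 FPKM in controls (log2 −0.67 ± 0.15, adjusted p = 0.0018). At D49 its call, at −1.09 (adjusted p = 0.048), was lost without any 1 of 19 of the 24 libraries, with adjusted p of 0.053 to 0.27. Of the zinc-responsive genes Mt1, Mt2 and Mtf1, the metallothionein Mt2 rose by 0.57 (adjusted p = 0.019) and Mt1 by 0.45 (adjusted p = 0.04), the call of Mt1 ending with the GC covariate (adjusted p = 0.065). Copper carriers split, since Slc31a2, which works in endosomes, rose to 112 FPKM with LPS against 73.7 FPKM in controls (log2 0.59 ± 0.12, adjusted p = 0.00087), and the plasma membrane importer Slc31a1 had 41.9 and 40.7 FPKM (log2 −0.01 ± 0.14, adjusted p = 0.99).

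The zinc importer Slc39a1, the most abundant of the class, averaged 113 FPKM with LPS and 97.5 FPKM in controls and did not pass (log2 0.24 ± 0.11, adjusted p = 0.11). Slc48a1, which releases heme from phagolysosomes, had a log2 value of 0.05 ± 0.28 (adjusted p = 0.96) and fell by 0.31 with the GC covariate (adjusted p = 0.014).

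Inorganic ion and proton carriers numbered 17, of which 3 rose and 5 fell. Slc8a1, the sodium-calcium exchanger that extrudes calcium, had 1.71, 0.950 and 1.79 FPKM with LPS at D1 against 5.00 and 3.95 FPKM in controls, and 2.38 and 2.03 FPKM with LPS at D3 against 6.91, 5.18 and 7.08 FPKM in controls. At D7 it had 1.87 and 1.57 FPKM with LPS against 7.39 and 7.41 FPKM in controls, at D21 1.11 and 0.954 FPKM against 3.68, 5.38 and 4.25 FPKM, and at D49 1.24 and 1.14 FPKM with LPS against 4.12, 3.49 and 8.15 FPKM in controls. Its highest LPS-treated library, at 2.38 FPKM, lay below its lowest control, at 3.49 FPKM, and the averaged log2 fold change was −1.90 ± 0.15 (adjusted p = 1.2e-08). The skeletal muscle markers given above were also lower with LPS at all 5 ages, as were Slc8a1 and Slc6a6, and their part in these falls was not tested.

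Slc4a7, a sodium-bicarbonate importer that raises intracellular pH and has been tied to phagosome acidification in human macrophages, rose to 13.5 FPKM with LPS against 6.35 FPKM in controls (log2 1.15 ± 0.15, adjusted p = 6.3e-06). Slc12a4, a potassium-chloride exporter, had a log2 value of 1.63 ± 0.54 (adjusted p = 0.024) that missed the threshold without D1 control library 1 (1.51, adjusted p = 0.063), D3 LPS library 2 (1.46, adjusted p = 0.058) or D7 control library 2 (1.56, adjusted p = 0.062). With the GC covariate Slc12a4 was at 1.07 (adjusted p = 3e-05), and its libraries in D1 ranged from 2.29 to 17.3 FPKM with LPS against 1.55 and 5.37 FPKM in controls.

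The call of the proton exchanger Slc9a4, at −0.38 ± 0.14 (adjusted p = 0.037), ended with the GC covariate (−0.21, adjusted p = 0.11) and without any 1 of 16 of the 24 libraries. The phosphate importer Slc20a1 did not pass (−0.20 ± 0.11, adjusted p = 0.18). The scaffold gene Slc9a3r1, which anchors proton exchangers and is no carrier, had 21.1, 78.2 and 77.5 FPKM with LPS at D1 against 8.83 and 22.8 FPKM in controls. In both treatments its higher D1 libraries were those with a GC deviation beyond 1, and the averaged log2 fold change was 1.71 ± 0.29 without and 1.32 with the covariate (adjusted p = 0.00013 and 1.5e-08).

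Of the 32 mitochondrial carriers, 5 rose, 9 fell and 18 did not pass, and with the GC covariate 5 rose and 14 fell. Slc25a37, the iron importer mitoferrin 1, had 32.3, 21.3 and 29.1 FPKM with LPS at D1 against 19.9 and 15.3 FPKM in controls, and 50.6 and 44.1 FPKM with LPS at D7 against 16.7 and 17.3 FPKM in controls. LPS-treated libraries lay above the controls of their age throughout (log2 1.11 ± 0.12, adjusted p = 5.1e-07). At D49 it had 43.6 and 43.8 FPKM with LPS against 20.8, 32.2 and 17.3 FPKM in controls. Red cell precursors also express this gene. Erythroid markers summed to 45 to 88.5 FPKM with LPS at D1 against 25.5 to 26.9 FPKM in controls. At D49 they summed to 0.174 to 0.189 FPKM with LPS against 0.249 to 2.20 FPKM in controls. The part of these markers in the values of Slc25a37 was not tested at any age.

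Slc25a24, which exchanges ATP-magnesium for phosphate under calcium control, had 15.6, 12.3 and 13.3 FPKM with LPS at D1 against 32.5 and 22.5 FPKM in controls, and 13.0 and 14.9 FPKM with LPS at D49 against 35.8, 37 and 66.5 FPKM in controls. The groups stood apart at all ages (log2 −1.31 ± 0.13, adjusted p = 1.7e-07). Slc25a25 of the same subfamily moved the other way, at 5.99 FPKM with LPS against 3.21 FPKM in controls (log2 0.84 ± 0.29, adjusted p = 0.031), a call lost without any 1 of 7 of the 24 libraries (adjusted p of 0.050 to 0.10). Slc25a12, the aspartate-glutamate carrier of the malate shuttle, fell by 1.12 ± 0.13 on the log2 scale (adjusted p = 9.4e-07). The abundant Slc25a5 (log2 −0.18 ± 0.14, adjusted p = 0.36) and the citrate exporter Slc25a1 (0.28 ± 0.43, adjusted p = 0.68) did not pass, and Slc25a5 fell by 0.30 with the GC covariate (adjusted p = 0.022).

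Carriers of lysosomes and of the secretory pathway moved in both directions. Slc17a5, which exports sialic acid from lysosomes, had 1.91, 1.34 and 1.38 FPKM with LPS at D1 against 3.38 and 2.62 FPKM in controls, and 1.11 and 1.2 FPKM with LPS at D7 against 4.17 and 4.24 FPKM in controls. No LPS-treated library reached a control of its age, and the averaged log2 fold change was −1.44 ± 0.15 (adjusted p = 3e-07). Slc29a3, the lysosomal nucleoside exporter, rose instead, with 18.7, 16.2 and 19.8 FPKM with LPS at D1 against 9.72 and 9.08 FPKM in controls (averaged log2 0.73 ± 0.09, adjusted p = 4.8e-06). Of 9 carriers of the endoplasmic reticulum and Golgi, 1 rose and 3 fell, among them Slc33a1, which brings acetyl-CoA into the endoplasmic reticulum (log2 −0.73 ± 0.14, adjusted p = 0.00031), and Slc35a5 of the nucleotide sugar carrier family (−0.86 ± 0.14, adjusted p = 8.3e-05). The UDP-N-acetylglucosamine carrier Slc35a3 did not pass (−0.23 ± 0.15, adjusted p = 0.26). Organic cation and bile acid family members gave 3 falls among 5, including the ergothioneine importer Slc22a4 (−0.54 ± 0.12, adjusted p = 0.0019).

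Taken age by age, each comparison rests on 4 or 5 libraries and fewer carriers passed. At D1 5 members rose and 3 fell, against 3.74% and 1.93% of all genes. At D3 10 rose and 5 fell, against 4.43% and 2.57%, and at D7 11 rose and 8 fell, against 5.15% and 4.47%. At D21 15 rose and 13 fell, against 6.77% and 6.74%, and at D49 8 rose and 9 fell, against 5.24% and 4.98%. As shares of members these are 3.73% and 2.24%, 7.46% and 3.73%, 8.21% and 5.97%, 11.2% and 9.7%, and 5.97% and 6.72%. In all of these calls the LPS and control libraries of the age did not overlap. So few libraries a side leave little room for a call with overlap, so this is no added support. With the GC covariate more members and more genes passed. Then 10 members rose and 14 fell at D1, against 6.91% and 5.31% of all genes, 16 and 13 at D3, against 7.61% and 7.21%, and 20 and 15 at D7, against 8.85% and 8.83%. At D21 20 rose and 19 fell, against 10.8% and 10.4%, and at D49 16 rose and 14 fell, against 10.3% and 9.14%. As shares of members these are 7.46% and 10.4%, 11.9% and 9.7%, 14.9% and 11.2%, 14.9% and 14.2%, and 11.9% and 10.4%. At D1 rises thus outnumbered falls without the covariate and falls outnumbered rises with it. At 1 or more ages 17 members rose and 15 fell, against 8.9% and 8.65% of all genes, and 102 did neither. The counts depended on single libraries: 3 members were called at D1 without D1 control library 1 or 2 and 5 without D1 LPS library 3, 5 and 6 at D3 without LPS library 1 and 2, 9 at D7 without either control or LPS library 1 and 10 without LPS library 2, 12 and 10 at D21 without LPS library 1 and 2, and 7 and 9 at D49 without LPS library 1 and 2. The share of all genes called without these libraries is not given, so these drops are not particular to carriers.

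**Figure D3:**
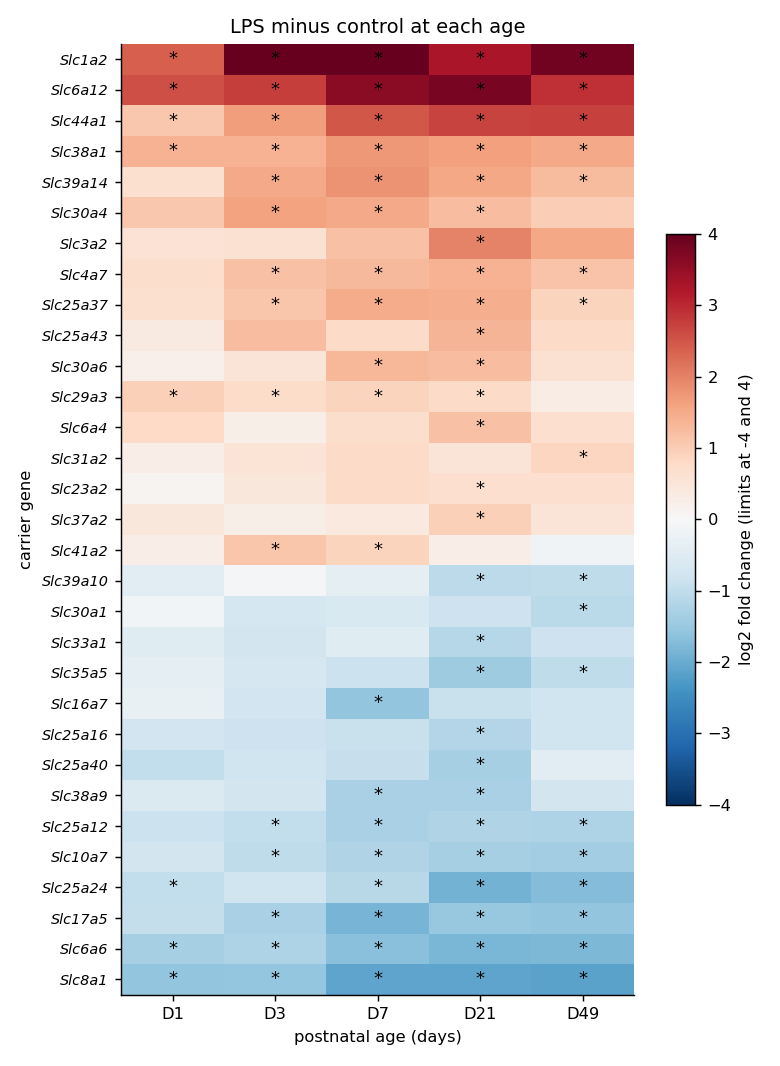
Log2 fold change with LPS at each age (columns, D1 to D49) for 31 of the 32 members called at 1 or more ages (rows), red for higher and blue for lower with LPS, with an asterisk where the call passed. Slc1a2, Slc6a12, Slc44a1 and Slc38a1 carry an asterisk in red at all 5 ages, and Slc8a1 and Slc6a6 in blue.

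At all 5 ages 4 members rose, against 2.27% of all genes, and 2 fell, against 1.12%. Among the 4, Slc1a2 passed the level filter only through its LPS-treated libraries. The rises were Slc1a2, with log2 fold changes of 2.39, 4.01, 4.31, 3.28 and 3.86 from D1 to D49, Slc6a12, with 2.58, 2.77, 3.60, 3.80 and 2.93, Slc44a1, with 1.08, 1.66, 2.47, 2.71 and 2.73, and Slc38a1. The falls were Slc8a1, with −1.59, −1.54, −2.11, −2.10 and −2.14, and Slc6a6, with −1.33, −1.23, −1.67, −1.82 and −1.81. No call of Slc1a2 or Slc38a1 at a single age ended when any 1 library was left out. Slc44a1 at D1 (adjusted p = 0.041) was no longer called without any 1 of 16 libraries, each of the 5 D1 libraries among them, with adjusted p of 0.051 to 0.35.

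Slc6a12 missed the threshold at D1 without control library 1 (adjusted p = 0.31) or 2 (0.14) or LPS library 2 (0.074) or 3 (0.053), at D3 without LPS library 2 (0.10), at D7 without control library 2 (0.098), and at D49 without control library 2 (0.062) or LPS library 1 (0.12). Slc8a1 did at D1 without control library 1 (adjusted p = 0.068) and at D3 without LPS library 1 (0.058) or 2 (0.12). Slc6a6 did at D1 without control library 2 (adjusted p = 0.057) and at D3 without LPS library 1 (0.13) or 2 (0.12).

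Besides those 6 genes, the nucleoside carrier Slc29a3 rose and Slc25a24 fell at D1. Slc29a3 was at 0.95 (adjusted p = 0.0087), a call lost without D1 control library 1 (0.086) or 2 (0.12), and Slc25a24 at −1.0 (adjusted p = 0.035), lost without any 1 of 9 libraries (0.050 to 0.51). Among members with 2 FPKM or more in the higher group, the next largest rises at D49 were those of Slc39a14 (1.25, adjusted p = 0.0012), Slc4a7 (1.15, adjusted p = 0.027) and Slc25a37 (0.90, adjusted p = 0.031). The calls of Slc4a7 and Slc25a37 were each lost without any 1 of 7 libraries, with adjusted p of 0.053 to 0.32 and 0.054 to 0.28. By the same limit the next largest falls at D49 were those of Slc25a24 (−1.73, adjusted p = 0.00053), Slc17a5 (−1.58, adjusted p = 0.0035) and Slc25a12 (−1.24, adjusted p = 0.0064). Below that limit Slc10a7 was at −1.40 (adjusted p = 0.0046). Slc17a5 missed the threshold without D49 LPS library 1 (adjusted p = 0.079), and Slc25a12 without D49 LPS library 1 (0.061) or 2 (0.076).

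Without the threshold, LPS-treated libraries lay wholly above controls at all 5 ages for 10 members, against 5.36% of all genes, and wholly below for 9, against 4.96%. The 10 were the 4 that rose at all ages, Slc29a3, Slc39a14, Slc4a7, Slc25a37, Slc30a4 and the serotonin carrier Slc6a4. Among the 9 were Slc8a1, Slc6a6, Slc17a5, Slc25a24, Slc25a12, Slc25a16, Slc44a2 and Slc10a7, a member of the bile acid carrier family tied to calcium handling.

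The second question is how the carriers differed with age. In controls, 26 members rose and 34 fell at D49 against D1, which is 19.4% and 25.4% of members, against 21% and 21.9% of all genes. The median log2 difference was −0.27 over members and −0.03 over all tested genes. With the GC covariate 14 rose and 8 fell (10.4% and 5.97% of members, against 5.96% and 4.45% of all genes), and 11 rises and 7 falls were common to both fits. Leaving out D1 control library 2, which has a GC deviation of 2.29, left 15 members called, and leaving out D49 control library 3, at −3.13, left 34. In LPS-treated cells 23 rose and 24 fell (17.2% and 17.9% of members, against 16.6% and 14.1% of all genes), and 17 and 8 with the covariate (12.7% and 5.97%, against 8.61% and 6.57%), of which 13 rises and 6 falls were common to both fits. There 24 and 31 were called without D1 LPS library 2 and 3, and 28 and 17 without D49 LPS library 1 and 2. Counts with a library left out are of members only, and do not show whether carriers changed more than other genes.

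**Figure D4:**
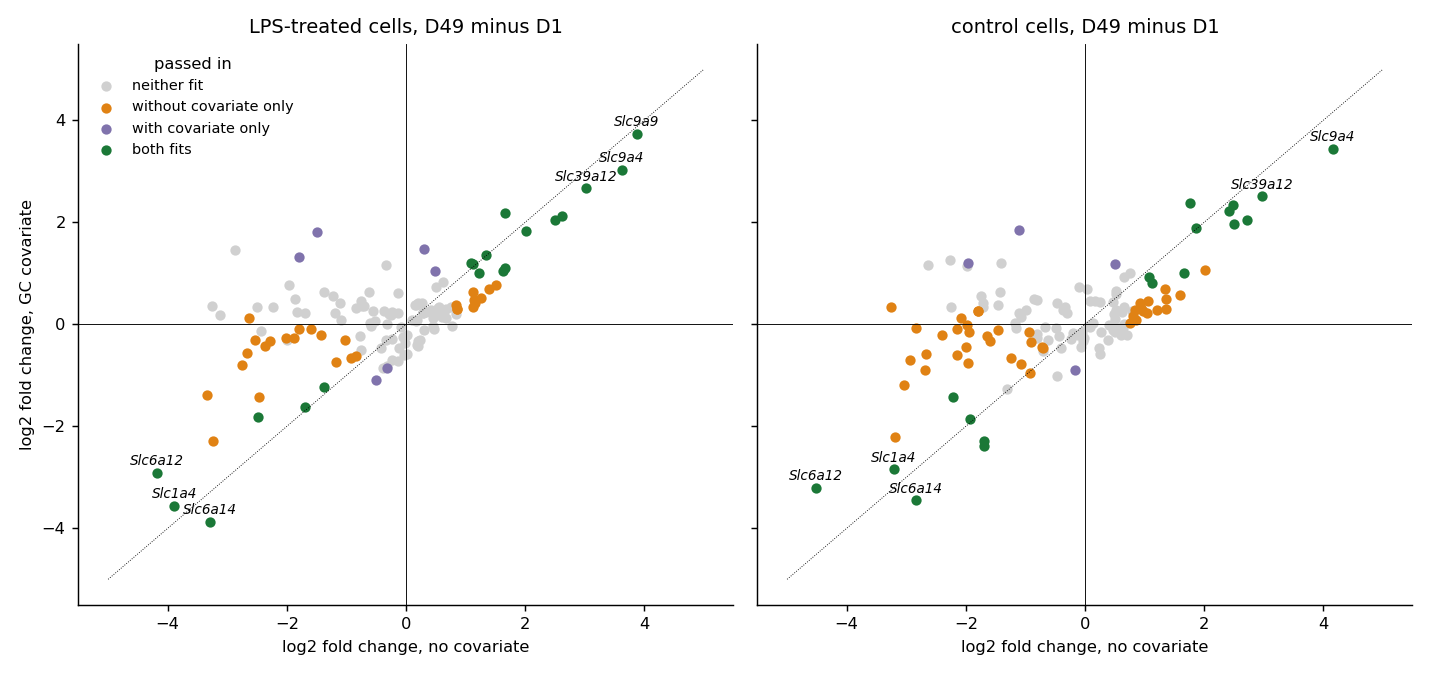
Log2 difference D49 minus D1 of each member without (x axis) and with (y axis) the GC covariate, LPS-treated cells on the left and controls on the right. Many members with a fall of 2 or more without the covariate lie near 0 with it, Slc25a45 in controls at −3.26 and 0.35 among them, and Slc9a4 stays high at 4.16 and 3.44.

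Carriers higher at D49 by both fits included several proton exchangers. Slc9a4, known from the basolateral membrane of stomach parietal cells, had 75.8, 80.3 and 118 FPKM in D49 controls against 6.07 and 4.11 FPKM in D1 controls (log2 4.16 ± 0.36, adjusted p = 5.4e-07), with 11.4, 5.84 and 14.8 FPKM at D3, 21.6 and 22.7 FPKM at D7 and 59.0, 78.4 and 64.3 FPKM at D21 between them. Control levels overlapped between D1 and D3 and between D21 and D49, and not between D3, D7 and D21. With LPS it had 52.1 and 56.1 FPKM at D49 against 5.09, 4.12 and 3.91 FPKM at D1 (3.63 ± 0.31, adjusted p = 5.9e-07). No other gene of the ion class had a higher mean level.

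The Golgi exchanger Slc9a7 followed the same order, at 8.95, 8.68 and 10.2 FPKM in D49 controls against 1.93 and 1.32 FPKM in D1 controls (2.51 ± 0.34, adjusted p = 6.1e-05), and at 7.40 and 7.27 FPKM with LPS at D49 against 1.6, 1.31 and 0.973 FPKM at D1 (2.50 ± 0.31, adjusted p = 2.3e-05). The endosomal exchanger Slc9a9 rose by 2.48 ± 0.54 in controls (adjusted p = 0.0033), a call that ended without D1 control library 2 (2.30, adjusted p = 0.078), and by 3.88 ± 0.53 with LPS (adjusted p = 5.6e-05). Its level stayed near 1 FPKM at D49.

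**Figure D5:**
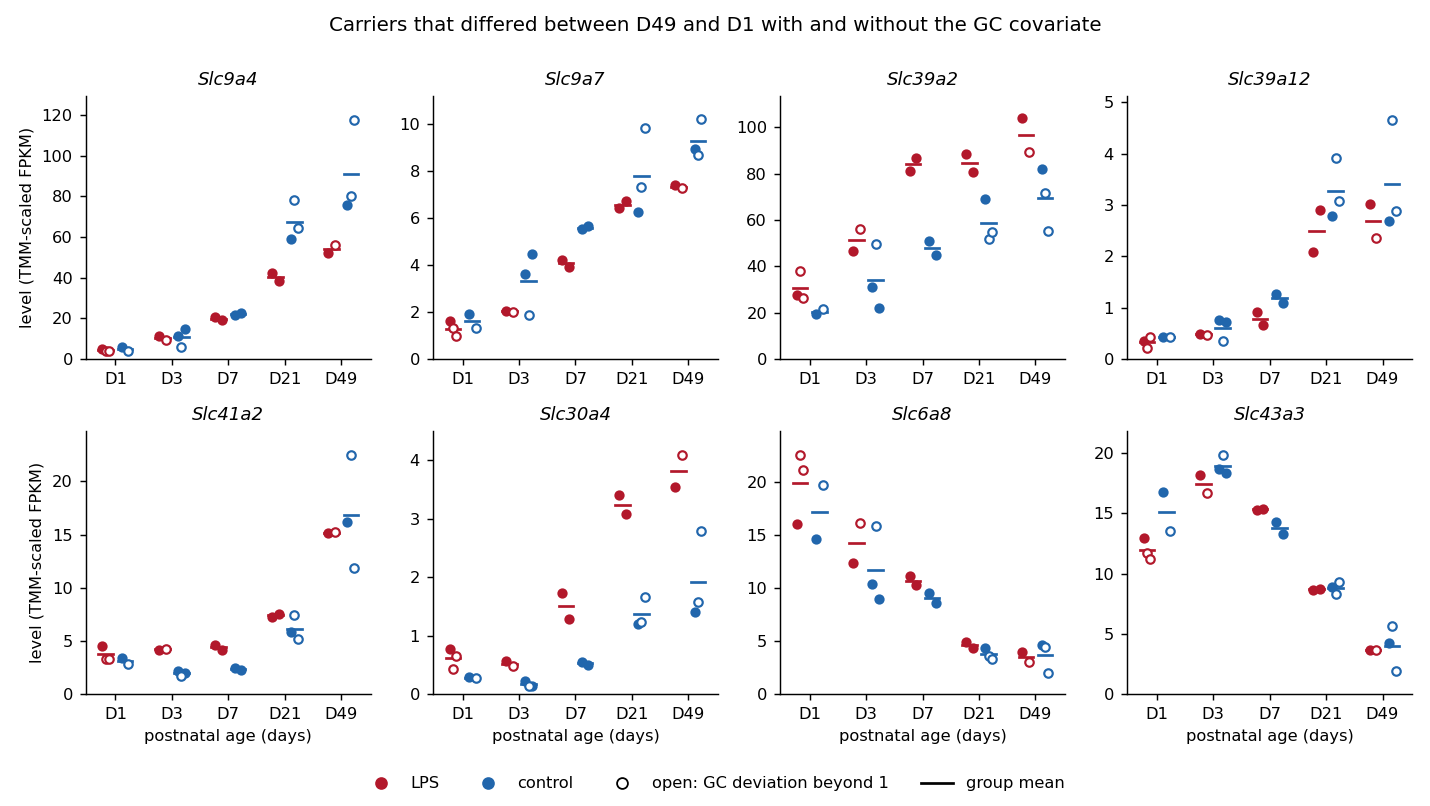
TMM-scaled FPKM (y axis) of 8 members in each library, by age, with LPS-treated libraries in red to the left of controls in blue, open circles for libraries with a GC deviation beyond 1, and lines at group means. Slc9a4, Slc9a7, Slc39a2, Slc39a12, Slc41a2 and Slc30a4 are higher at D49 than at D1, and Slc6a8 and Slc43a3 are lower.

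Of the 23 metal and heme carriers 7 rose and 4 fell in controls (30.4% and 17.4%, against 21% and 21.9% of all genes), and 5 rose and 1 fell with the covariate (21.7% and 4.35%, against 5.96% and 4.45%). The zinc importer Slc39a2 had 81.9, 71.5 and 55.1 FPKM in D49 controls against 19.3 and 21.5 FPKM in D1 controls (1.77 ± 0.29, adjusted p = 0.00042), and 104 and 89.3 FPKM with LPS at D49 against 27.5, 37.9 and 26.3 FPKM at D1 (1.66 ± 0.27, adjusted p = 0.00034). Slc39a12, a zinc importer best known from brain, rose to 3.41 FPKM in D49 controls against 0.431 FPKM in D1 controls (2.98 ± 0.42, adjusted p = 1e-04). Slc30a4 had 1.40, 1.58 and 2.78 FPKM in D49 controls against 0.291 and 0.289 FPKM in D1 controls (2.72 ± 0.37, adjusted p = 5.9e-05).

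The magnesium carrier Slc41a2 had 16.2, 22.5 and 11.9 FPKM in D49 controls against 3.42 and 2.87 FPKM in D1 controls (2.42 ± 0.27, adjusted p = 1.1e-05), with 5.82, 7.46 and 5.17 FPKM at D21. It was at 2.44 and 2.31 FPKM at D7, so its controls at D21 and D49 stood above all earlier ones. Slc39a6, a zinc importer of the plasma membrane, rose by 1.12 ± 0.22 in controls (adjusted p = 0.0016), a call lost without D1 control library 2 (0.94, adjusted p = 0.064), and by 1.23 ± 0.21 with LPS (adjusted p = 0.00048). The neutral amino acid carrier family member Slc38a6 rose by 1.67 ± 0.31 in controls (adjusted p = 0.001) and 1.66 ± 0.29 with LPS (adjusted p = 0.00057). With LPS the vitamin C carrier Slc23a2 rose by 1.09 ± 0.22 (adjusted p = 0.0017) and Slc39a14 by 1.12 ± 0.23 (adjusted p = 0.0024), while in controls they were at 0.53 ± 0.22 (adjusted p = 0.062) and 0.52 ± 0.24 (adjusted p = 0.085).

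The 7 carriers lower at D49 in controls by both fits mostly take up amino acids or related solutes. Slc6a8, the creatine carrier, had 4.67, 4.48 and 2.03 FPKM in D49 controls against 14.7 and 19.8 FPKM in D1 controls (−2.21 ± 0.31, adjusted p = 9.6e-05), and 4.05 and 3.03 FPKM with LPS at D49 against 16.1, 22.6 and 21.1 FPKM at D1 (−2.49 ± 0.35, adjusted p = 7.4e-05). Slc43a3, a purine nucleobase carrier, had 4.24, 5.71 and 1.97 FPKM in D49 controls against 16.7 and 13.6 FPKM in D1 controls (−1.93 ± 0.28, adjusted p = 0.00011). Its D3 and D7 controls, at 13.3 to 19.8 FPKM, lay within or near the D1 range, and its D21 controls at 8.29 to 9.34 FPKM lay below it.

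Slc6a12 fell by 4.52 ± 0.74 in controls (adjusted p = 0.00036) and by 4.18 ± 0.75 with LPS (adjusted p = 0.00075). Slc6a14, a broad amino acid importer known from mucosal epithelia, had 0.136, 0.246 and 0.0438 FPKM in D49 controls against 1.27 and 0.798 FPKM in D1 controls (−2.83 ± 0.56, adjusted p = 0.0016). The 11 lung epithelial markers summed to 14.4 to 23.1 FPKM in D49 controls against 27.4 to 60.2 FPKM in D1 controls, with 7 of them lower and 4 higher at D49. Scgb1a1 was at 1.41 FPKM in D49 controls against 23.4 FPKM in D1 controls and Napsa at 0.833 against 9.74 FPKM, while Epcam was at 7.09 against 1.18 FPKM and Cdh1 at 7.88 against 6.41 FPKM. Other lists differed between these groups too. Monocyte, neutrophil, erythroid and endothelial sums averaged 12.7, 59.4, 1.23 and 0.147 FPKM in D49 controls against 121, 184, 26.2 and 2.22 FPKM in D1 controls. Exocrine gland and hepatocyte sums went the other way, at 1448 and 23.2 FPKM against 4.81 and 8.27 FPKM. The part of all these markers in the falls with age was not tested. Slc1a4, an exchanger of alanine, serine and cysteine, fell by 3.21 ± 0.57 in controls (adjusted p = 0.00069), to 0.108 FPKM at D49 against 1.03 FPKM at D1. It had 1 to 12 counts in the D21 and D49 libraries, so it passed the level filter only through libraries of earlier ages. Its fall is to be read with that limit. In controls Slc44a1 and Slc1a2 fell as well, by 1.69 ± 0.29 (adjusted p = 5e-04) and 1.69 ± 0.32 (adjusted p = 0.0011), whereas with LPS they had values of −0.04 ± 0.29 and −0.23 ± 0.31 (adjusted p = 0.93 and 0.57). The controls of Slc1a2 all lay below the 1 FPKM of the level filter.

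The 6 largest falls in controls among members with 2 FPKM or more in the higher group were all lost with the covariate. They were Slc25a45 (−3.26, with the covariate 0.35), the basic amino acid exchanger Slc7a7 (−3.03 and −1.18), Slc7a5 (−2.93 and −0.69), the lysosomal glutamine exporter Slc38a7 (−2.83 and −0.07), the lysosomal proton-coupled amino acid exporter Slc36a1 (−2.69 and −0.89) and the magnesium carrier Slc41a3 (−2.40 and −0.21). Slc7a5 had 2.81, 0.754 and 0.264 FPKM in D49 controls against 4.98 and 14.7 FPKM in D1 controls, the 2 lowest and the highest of these being the libraries with a GC deviation beyond 1. Without D1 control library 2 all 6 missed the threshold, at −1.49, −2.26, −1.95, −1.44, −1.96 and −1.59 in the order named (adjusted p = 0.49, 0.11, 0.19, 0.35, 0.12 and 0.28). Slc25a45, Slc38a7 and Slc41a3 also did without D49 control library 2 (adjusted p = 0.10, 0.060 and 0.072) or 3 (0.10, 0.057 and 0.058). The part of GC deviation in these falls was not tested beyond these fits.

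By the same limit of 2 FPKM, 4 of the 6 largest falls in LPS-treated cells were lost with the covariate, namely the mitochondrial glutamate carrier Slc25a22 (−3.34, with the covariate −1.38), the sugar carrier Slc50a1 (−2.67 and −0.56), Slc38a7 (−2.64 and 0.12) and Slc7a5 (−2.54 and −0.30). The other 2, Slc6a12 and Slc6a14, passed in both fits. Below the limit, Slc1a4 fell by 3.89 with LPS (adjusted p = 0.00074), also in both fits. That value rests on few reads, with 2 and 4 counts in D49 LPS libraries against 46, 43 and 69 in D1 LPS libraries. Without D49 LPS library 2 the values were −3.0 for Slc25a22 (adjusted p = 0.11), −2.38 for Slc50a1 (0.18) and −2.17 for Slc7a5 (0.23). Slc50a1 also missed the threshold without D49 LPS library 1 (adjusted p = 0.058) or D1 LPS library 2 (0.071), Slc7a5 also without D49 LPS library 1 (0.066) or D1 LPS library 2 (0.078) or 3 (0.077), and Slc38a7 without any 1 of 8 libraries (0.051 to 0.24). Genes of the amino acid shortage list were lower in D49 than in D1 controls for 8 of 12 (66.7%, against 21.9% of all genes), and for 2 with the covariate (16.7%, against 4.45%), the serine synthesis gene Psat1 (−2.18) and the asparagine synthetase Asns (−1.2).

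Slc7a11 was higher at the later age in both treatments. Its mean was 1006 ± 382 FPKM in D49 controls against 434 ± 99.4 FPKM in D1 controls (SD, n = 3 and 2; log2 1.21 ± 0.34, adjusted p = 0.013), and 1316 ± 124 FPKM with LPS at D49 against 550 ± 111 FPKM at D1 (n = 2 and 3; 1.26 ± 0.33, adjusted p = 0.0097). Neither call held with the covariate, at 0.29 (adjusted p = 0.53) and 0.51 (adjusted p = 0.12). In controls it was also lost without D1 control library 2 (1.00, adjusted p = 0.18) or D49 control library 3 (0.86, adjusted p = 0.085), and with LPS without D1 LPS library 2 (1.12, adjusted p = 0.068) or D49 LPS library 2 (1.08, adjusted p = 0.16). Its partner Slc3a2 fell by 1.6 ± 0.49 in controls (adjusted p = 0.018) but by 0.33 with the covariate (adjusted p = 0.60), and the call was lost without D1 control library 2 (adjusted p = 0.23) or D49 control library 2 (0.055) or 3 (0.052).

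The third question is whether the response to LPS itself differed with age, tested as the LPS effect at D49 minus that at D1. No member passed in edgeR QL, against 0.204% of all genes, and 5 of 134 had an unadjusted p under 0.05. That count is no more than the limit would pass without any effect, so it is not read as a result. DESeq2 and limma on log2(FPKM + 1) also gave 0. The largest of these 5 differences were those of Slc44a1, at 1.65 ± 0.41 (adjusted p = 0.15), and Slc1a2, at 1.46 ± 0.44 (adjusted p = 0.31), and the lowest was that of Slc29a3, at −0.66 ± 0.29 (adjusted p = 0.83).

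With the GC covariate 1.61% of all genes passed and 2 members did, Slc44a1 at 1.78 ± 0.29 (edgeR QL adjusted p = 0.00066) and Slc1a2 at 1.59 ± 0.37 (adjusted p = 0.019). By that fit both responded more strongly at D49, where their control levels were lower than at D1 and their LPS-treated levels were not shown to differ between the ages. For Slc44a1 the means at D49 were 31.7 FPKM with LPS against 4.80 FPKM in controls, and at D1 32.7 FPKM with LPS against 15.5 FPKM in controls. Slc1a2 had 2.12 FPKM with LPS against 0.147 FPKM in controls at D49, and 2.49 FPKM against 0.474 FPKM at D1. Its control means at both ages lay below the 1 FPKM of the level filter.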

How the data were processed

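Counts per gene were deposited by the authors for 24 bulk RNA-seq libraries; the submitters' processing notes name STAR, DESeq2 and the GRCm39 build, while the sources used here state no versions, counter or annotation. Gene symbols came from the GENCODE M21 names supplied with the reference, which matched 91.9% of gene IDs, and genes without a symbol held 0.904% of counts. Library totals of 15770751 to 23334625 counts set the precision, so members with few counts are read only by library.

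Counts were tested with edgeR 4.0.16 (R 4.3.3): TMM scaling, 10 group means, the quasi-likelihood F test and Benjamini-Hochberg adjustment over the 11774 genes with 1 FPKM or more in 2 or more libraries. SEs were derived from the F statistics. Levels are FPKM on TMM-scaled library sizes. GC deviation of a library is the median log2 deviation of the 10% of tested genes highest in GC minus that of the 10% lowest, with a prior count of 2, GC being known for 97.2% of tested genes and all members. Only the edgeR fit without covariate was tried on simulated counts with known changes, for LPS at D1 and LPS averaged over ages. The simulation held no GC deviation and no difference between ages. It therefore does not cover the covariate fit, the other alternatives or the age comparisons.

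The alternatives were DESeq2 1.42.0, its size factors in edgeR, no filter, limma 3.58.1 on log2(FPKM + 1), GC deviation as covariate, a block by replicate number without and with that covariate, only the 14 libraries with GC deviation within 1, only the groups compared, and leaving out each library. No 2 libraries of a group were duplicates, since their Spearman correlations were 0.922 to 0.992 and their counts differed beyond sampling noise.

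The members, lists and naming rule were chosen with earlier results of these data known. The rule named members that passed with a mean of 2 FPKM or more in the higher group: the 10 largest rises and falls with LPS averaged over ages, 6 at D1, at D49, for age and for the response difference, and 3 at D3, D7 and D21, besides the highest member of each class with 5 or more. It also always reported Slc7a11, Slc3a2, Slc7a5, Slc1a5, Slc15a3, Slc29a3, Slc25a1, Slc25a5, Slc39a14, Slc30a1, Slc31a1, Slc48a1 and Slc20a1. Some members it gave are not reported here. Further genes were named after their values were seen. Promoter sequences are RefSeq's, on the build given beside them.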

Additional observations from a re-analysis of the deposited data

Results flagged for a closer look

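A difference between ages in the LPS response led to a closer look at 2 carriers. With GC deviation as a covariate, the LPS response at D49 minus that at D1 was 1.78 ± 0.29 for the choline carrier Slc44a1 (edgeR QL adjusted p = 0.00066) and 1.59 ± 0.37 for the glutamate carrier Slc1a2 (adjusted p = 0.019). Without the covariate the differences were 1.65 (adjusted p = 0.15) and 1.46 (adjusted p = 0.31). Among the 14 libraries with a GC deviation within 1 they were 1.74 (adjusted p = 0.033) and 1.81 (adjusted p = 0.099), and DESeq2 gave adjusted p of 0.075 and 0.20. Leaving out D3 control library 2 brought Slc44a1 to an adjusted p of 0.039, and the other libraries left out in turn gave 0.098 to 0.61.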

How the results depend on the processing

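Of 175 calls among 270 pairs of a named gene and a comparison, the direction turned only in 2 age falls. Without and with the GC covariate these were −3.26 and 0.35 for Slc25a45 in controls (0.44 with the replicate block added), and −2.64 and 0.12 for Slc38a7 with LPS (0.06). The covariate raised the members called with LPS to 24 at D1, 29 at D3, 35 at D7 and 30 at D49, against 8, 15, 19 and 17 without it, and lowered those called for age to 25 with LPS and 22 in controls, against 47 and 60. It called 2 for the response difference. Of all genes it called 12.2%, 14.8%, 17.7%, 19.5%, 15.2%, 10.4% and 1.61% in these 7 comparisons. With the block and the covariate the same 7 counts were 24, 28, 34, 31, 26, 23 and 2, against 11.9%, 14.6%, 17.9%, 19%, 14.5%, 10.5% and 1.09% of all genes. The 14 libraries with GC deviation within 1 gave 14 at D1, 30 at D3, 50 at D7, 27 and 26 for age with LPS and in controls, and 1 for the response difference, against 7.04%, 13.2%, 28.3%, 16.5%, 12.6% and 0.178% of all genes. Fits of only the groups compared gave 0 at D1, 3 at D3, 49 at D7, 4 at D49 and 1 for age in controls, against 1.34%, 3.75%, 26.1%, 2.59% and 0.985%, and limma on log2(FPKM + 1) gave 13 at D1, against 7.35%. The cause of these shifts was not tested.

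Leaving out 1 library at a time gave 3 to 10 members at D1, 5 to 20 at D3, 9 to 22 at D7, 10 to 32 at D21, 7 to 24 at D49, 54 to 65 averaged over ages, 17 to 58 for age with LPS, 15 to 78 for age in controls and 0 to 1 for the response difference. The shares of all genes in the same fits are not given, so these ranges are not set against a background. The replicate block on its own moved no count of members by over 1.5 times. Libraries of the same number and age correlated at 0.073 to 0.831 in their deviations from the group means, all 10 above 0, with a median of 0.425, and 7 above 0.1, while 14 of 18 pairs of different numbers were below 0. Of 20 libraries with a same-numbered partner at their age, 18 correlated best with it. Deviations from a group mean sum to 0, so in a group of 2 libraries they are mirror images. The 10 values are therefore not independent of each other. The negative values and the 18 of 20 largely follow from them and are no separate evidence. The libraries numbered 1 had a GC deviation of at most 0.36 in size in all 10 groups. These values hint at something shared by number, but the labels state no pairing and not every pair passed 0.1, so the block was kept as an alternative. With 2 or 3 libraries a group and a GC deviation that runs with age, age and library quality cannot be told apart for the carriers whose call needs the fit without the covariate.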

Other observations

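Carriers and related genes outside the Slc naming form were followed through 3 more lists, chosen with results of these data known. Of 37 tested carriers with other names, such as the Slco, Slc35 letter, Mfsd and Sfxn genes, 6 rose and 11 fell with LPS averaged over ages (16.2% and 29.7%, against 14.9% and 18.8% of all genes), and 7 rose and 9 fell with the GC covariate (18.9% and 24.3%, against 18.6% and 22.7%). Slco3a1, a prostaglandin and organic anion carrier, had 4.89 FPKM with LPS against 0.456 FPKM in controls (log2 3.39 ± 0.19, adjusted p = 8.6e-11). Mfsd7a rose to 14 FPKM against 4.70 FPKM (log2 1.6 ± 0.16, adjusted p = 2e-07), and Slc35f5 to 32.3 FPKM against 16.6 FPKM (log2 0.91 ± 0.13, adjusted p = 2.7e-05).

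Of 22 tested genes of the ABC family, whose transporters use ATP directly, 4 rose and 8 fell with LPS (18.2% and 36.4%, against 14.9% and 18.8% of all genes). The list includes Abce1, Abcf1, Abcf2 and Abcf3, which are no transporters, and Abcf1 was among the rises. The cholesterol exporter Abcg1 fell to 9.56 FPKM with LPS against 17.95 FPKM in controls (log2 −1.12 ± 0.15, adjusted p = 7.3e-06), and the organic anion exporter Abcc1 rose to 36.5 FPKM against 24.2 FPKM (log2 0.54 ± 0.16, adjusted p = 0.014). Of 18 tested subunits of the V-ATPase, the pump that acidifies lysosomes and supplies the proton gradient many carriers use, 1 rose and 4 fell (5.56% and 22.2%, against the same shares of all genes). The most changed was Atp6v0d2, at 243.6 FPKM with LPS against 597.2 FPKM in controls (log2 −1.09, adjusted p = 7.1e-06). At D49 against D1 in controls the ABC list had 4 rises and 8 falls (18.2% and 36.4%), and 1 and 1 with the GC covariate (4.55% each). Without the covariate Abce1 was among the rises, and Abcf1, Abcf2 and Abcf3 were among the falls. The V-ATPase list had 5 and 4 (27.8% and 22.2%), and 1 and 0 with the covariate (5.56% and 0%). Of all genes 21% and 21.9% rose and fell, and 5.96% and 4.45% with the covariate.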
